A study of Homo sapiens with 74 samples.

Results

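The major histocompatibility complex (MHC) is the dense gene block on the short arm of human chromosome 6 that holds the genes of antigen presentation. Its accessible regions were taken as every region of the knockout count table on hg19 chromosome 6 inside the extended MHC window, and 368 of 145536 regions qualified. The choice rested on position and used no measured value. The knockdown table, of 145730 regions, lists each of them at identical coordinates, and all 368 were tested in both tables.

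Class I genes encode the surface proteins that show peptides from inside the cell to cytotoxic T cells, and class II genes such as HLA-DRA encode those that show engulfed peptides to helper T cells. The class III part between them holds complement, tumour necrosis factor family and housekeeping genes. The flanking extended parts hold, among others, transfer RNA, zinc-finger and olfactory receptor genes on the class I side and further genes on the class II side. The BAF (SWI/SNF) complexes slide and evict nucleosomes with the energy of ATP, and are known to act at gene control elements, class II genes among them. SMARCA4 and SMARCA2 are their alternative ATPases. ARID1A and ARID1B are alternative large subunits of canonical BAF, ARID2, PBRM1, BRD7 and PHF10 belong to the PBAF form, and BRD9 belongs to the non-canonical form. SMARCC1, SMARCC2 and SMARCD1 to SMARCD3 build the core, and ACTB is the actin subunit.

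The assay was ATAC-seq, where a transposase inserts adapters into DNA not covered by nucleosomes, and the cells were HAP1, a near-haploid human line from a chronic myeloid leukaemia. The knockout table holds 26 clones in which 1 of 22 genes was knocked out (ACTB, ARID1A, ARID1B, ARID2, BCL11A, BCL11B, BCL7A, BCL7B, BRD7, BRD9, DPF1, DPF2, DPF3, PBRM1, PHF10, SMARCA2, SMARCA4, SMARCC1, SMARCC2, SMARCD1, SMARCD2 or SMARCD3), in 2 libraries for each clone, beside 4 libraries of wild-type cells. ARID1A, ARID1B, BCL7B and SMARCA4 have 2 clones each, and every other knockout is a single clone, so that clone and gene cannot be told apart there. The knockdown table holds 8 groups of 2 libraries: SMARCA4, ARID2, double SMARCA4 and ARID2, or control knockdown in wild-type cells, SMARCA4 or control knockdown in ARID2 knockout cells, and ARID2 or control knockdown in SMARCA4 knockout cells. Clones of the main set were compared with wild-type replicates 1 and 2. A further set, with 1 clone each of ARID1B, BCL7B and SMARCC2, was compared with wild-type replicates 5 and 6. All comparisons of 1 set share their wild-type libraries. The labels do not say whether the 2 libraries of a group stem from separate cultures, and p-values therefore describe the spread between these libraries, which may be technical.

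Total counts per library were 7855389 to 12422345 in the main knockout set, 5085811 to 7331537 in the further set and 5355899 to 12432292 in the knockdown table. Of these, 32337 to 51118, 20040 to 27950 and 20884 to 62268 counts lay in the MHC, and the median count of an MHC region was 45.0 to 72.0, 31.0 to 36.0 and 33.5 to 84.0. Log accessibility over the MHC regions correlated at r = 0.917 to 0.965 between the 2 libraries of a knockout group and at 0.902 to 0.947 in the knockdown table. Levels below are in CPM, counts scaled to library size with TMM factors, in which 1 CPM is about 8 to 12 reads in a library of the main set. A region is said to be called when the quasi-likelihood test of edgeR gave a Benjamini-Hochberg adjusted p below 0.05 over all regions tested. Beside the main counts of called MHC regions in each comparison stands the share of all tested regions called the same way. How reads that match several near-identical genes (the HLA genes, the C4 genes) were placed is not given in the sources used here, so values in such genes are uncertain.

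By midpoint the window was divided into 5 parts. The extended class I part held 70 regions between chr6:28510236 and 29596911, the class I part 157 between 29600008 and 31497157, and the class III part 60 between 31509210 and 32164673. The class II part held 41 regions between 32211221 and 33092914, and the extended class II part 40 between 33129113 and 33480426. The regions are given by position and were not assigned to genes here. In the gene order of RefSeq (GRCh38.p14, used for names and order only) the extended class I part spans SCAND3 to GABBR1 with 20 protein-coding and 38 transfer RNA genes, class I MOG to MICB with 51 protein-coding genes, class III MCCD1 to NOTCH4 with 59, class II TSBP1 to HLA-DPB1 with 20, and extended class II COL11A2 to ZBTB9 with 20.

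MHC regions were more accessible than the average region of these cells. The median level over wild-type libraries was 5.46 CPM in the MHC, against 3.30 CPM over the other 8959 regions of chromosome 6 and 3.47 CPM over all regions. In the MHC 43.8% of regions (161 of 368) fell in the most accessible quartile of all regions and 11.7% in the least accessible. The class III part, the most gene-dense of the MHC, stood highest, with a median of 12.7 CPM and 65.0% of its regions in the top quartile. The extended class II part followed with 7.66 CPM and 57.5%, then the extended class I part with 5.41 CPM and 40.0% and the class I part with 4.70 CPM and 38.9%. The class II part, whose HLA genes are known to be active mainly in antigen-presenting cells, was lowest with 3.28 CPM and 24.4%, near the share over all regions. It was also the sparsest, with 45.6 regions per Mb, against 63.6 in the extended class I, 82.6 in the class I, 85.7 in the class III and 100.0 in the extended class II part.

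The most accessible region of the MHC was chr6:31587578-31589180 in the class III part, with 56.5 ± 4.23 CPM (SD, n = 4 wild-type libraries). It was followed by chr6:32163143-32164673 at the far end of the same part, with 56.2 ± 4.49 CPM. The strongest of the class II part was chr6:32935995-32938006 with 53.8 ± 5.05 CPM, so the part with the lowest median still held a region close to the strongest of all. The strongest of the extended class II, class I and extended class I parts were chr6:33377794-33379246 with 49.0 ± 6.4 CPM, chr6:30523140-30525416 with 48.6 ± 3.21 CPM and chr6:28863086-28865250 with 44.2 ± 5.87 CPM. The class I region was also the widest of the MHC, 2276 bp, where the median width was 666 bp, against 622 bp over all regions.

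Across the 22 knockouts, 85 of the 368 MHC regions were called at least once (23.1%) and 283 never, against 29.8% of all regions called at least once. With TMM scaling these made 126 calls, 39 lower and 87 higher than wild type. Thus 69.0% of the MHC calls were higher, against 36.0% of the calls over all regions. Of the higher calls, 40 came from SMARCA4 knockout, which had 43 lower and 13 higher on the authors' normalized values relative to their median. In SMARCC1, BCL11A, SMARCD3, BCL11B and BCL7A knockouts, 13, 7, 7, 5 and 4 higher calls lay in 1 run of neighbouring regions described below. Those 5 knockouts share their wild-type libraries. In the SMARCA4 knockout 13 MHC regions were called lower and 40 higher, against 13.9% lower and 8.0% higher of all regions (3.53% and 10.9% of the MHC). The ARID1A knockout gave 13 lower and 5 higher, against 10.3% and 2.27% of all regions (3.53% and 1.36% of the MHC). The SMARCC1 knockout gave 2 lower and 13 higher, against 4.19% and 1.0% of all regions (0.543% and 3.53% of the MHC). With this scaling the 3 knockouts had lower calls in the MHC at a smaller share than over all regions. On the authors' normalized values, taken relative to their median, the share of lower calls in SMARCA4 knockout was 11.7% in the MHC and 12.0% over all regions, in ARID1A knockout 5.16% and 8.33%, and in SMARCC1 knockout 1.36% and 3.67%.

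**Figure D1:**
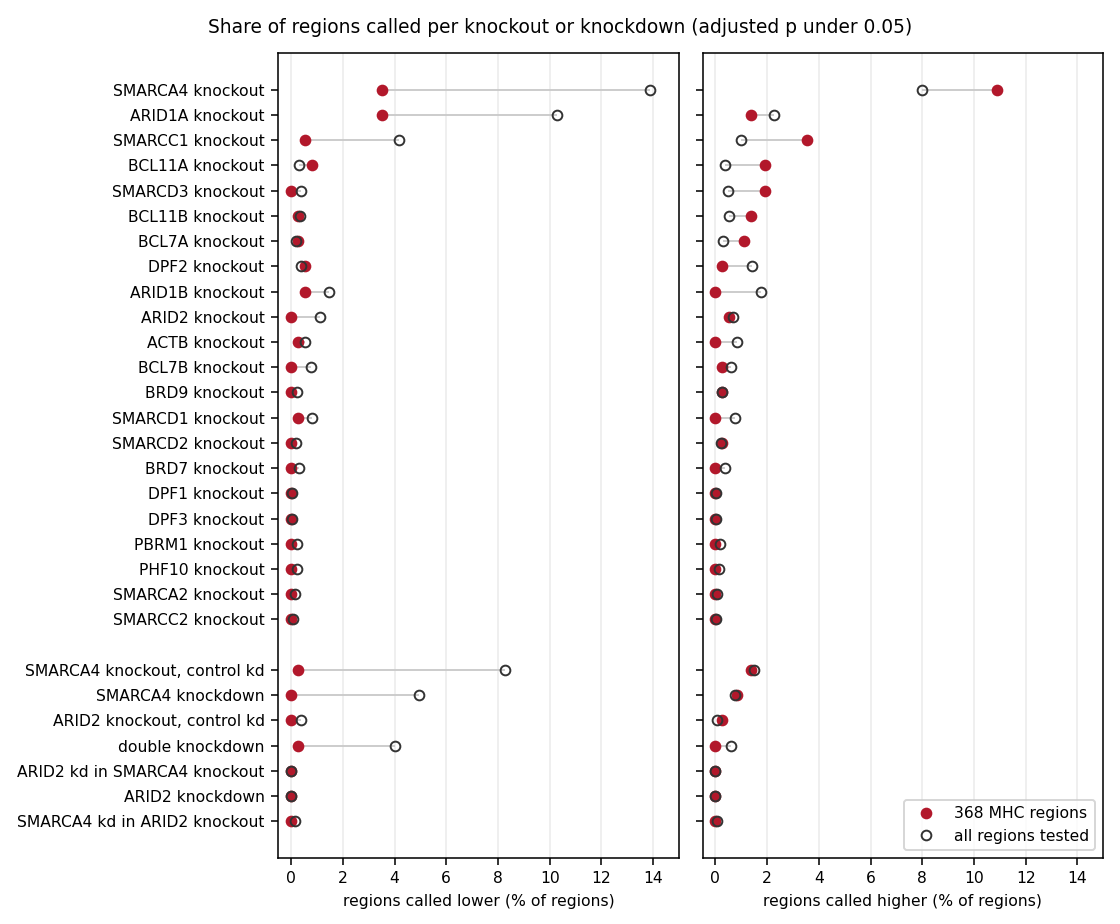
Share of regions called lower and higher (percent) in each knockout and knockdown comparison, for the 368 MHC regions (filled) and for all regions tested (open). For SMARCA4 knockout the filled points stand at 3.53% lower and 10.9% higher, where all regions stand at 13.9% and 8.0%; on the authors' normalized values, taken relative to their median, the order of lower and higher in the MHC turns round.

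Loss of SMARCA4, the main ATPase of BAF in many cell types, left most of the MHC slightly higher with TMM scaling, and slightly lower on the authors' normalized values taken relative to their median. With TMM the median log2 fold change was 0.21 over the 368 MHC regions, against 0.01 over all regions, and 269 of 368 lay above 0. Both clones gave such calls: clone 4 had 6 lower and 30 higher (all regions 11.2% and 6.3%) and clone 6 had 7 lower and 27 higher (all regions 10.3% and 5.48%), with medians of 0.21 each. Without 1 library the 53 calls became 26 (wild-type replicate 1), 25 (wild-type replicate 2), 29 (clone 4 replicate 2) or 26 (clone 6 replicate 2). The 36 calls of clone 4 became 19 without either wild-type library and 12 without its own replicate 2, and the 34 of clone 6 became 17, 19 and 2 without wild-type replicate 1, wild-type replicate 2 and its own replicate 2.

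By part, lower and higher calls in the SMARCA4 knockout numbered 1 and 16 of 70 in the extended class I part, 8 and 9 of 157 in class I, 1 and 9 of 60 in class III, 2 and 0 of 41 in class II, and 1 and 6 of 40 in extended class II. The part medians were 0.28, 0.18, 0.27, 0.08 and 0.28 in that order. Moving the part boundaries by 0.1 Mb either way put 2 higher calls into the class II part. Of the 16 higher calls of the extended class I part, 15 fell in 1 interval of 400.0 kb from 28556858 to 28957277, a stretch chosen after its values were seen, where 43 of 52 regions lay above 0 and the median was 0.31. In SMARCA4 knockout cells of the knockdown table, 4 regions of this interval were called higher, 37 of 52 lay above 0 and the median was 0.14. Over the whole MHC that comparison had 5 higher calls, 253 of 368 regions above 0 and a median of 0.15. The median of the interval therefore did not stand out there. Among the other knockouts the median of the interval ran from -0.27 (SMARCD1) to 0.163 (PBRM1), and was -0.01 in SMARCA2 knockout. SMARCD1, PBRM1 and SMARCA2 knockouts had no higher call there. BRD9, DPF2 and SMARCD2 knockouts had 1 each, where 0.26%, 1.42% and 0.223% of all regions were called higher. ARID1A knockout had a median of 0.156, with 37 of 52 regions above 0 and 1 higher call. After SMARCA4 knockdown the median was 0.161 in wild-type cells and 0.246 in ARID2 knockout cells. After double knockdown it was -0.0562, with 21 of 52 regions above 0. No region of the interval was called in these knockdown comparisons.

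The direction of these small shifts depended on which normalized values were used, and the cause was not tested. With the relative log expression scaling the SMARCA4 calls were 13 lower and 39 higher, and with DESeq2 13 lower and 41 higher. On the authors' own normalized values, tested with limma, they were 5 lower and 47 higher (1.36% and 12.8%), against 5.22% and 17.9% of all regions. There the MHC median was 0.25, below the median of 0.34 over all regions. Relative to that median the same values gave 43 lower and 13 higher in the MHC (11.7% and 3.53%), against 12.0% and 5.6% of all regions, and the MHC median became -0.09. By part, lower and higher calls were then 3 and 5 in extended class I, 17 and 5 in class I, 12 and 0 in class III, 3 and 1 in class II, 8 and 2 in extended class II, and 2 and 4 in the 400.0 kb interval. In SMARCA4 knockout higher calls thus outnumbered lower ones in the MHC with TMM, RLE, DESeq2 and the authors' values as deposited, and lower calls outnumbered higher ones once those values were centred. The ARID1A calls were 5 lower and 32 higher on the authors' values (1.36% and 8.7%), against 4.9% and 9.53% of all regions, where all regions had a median of 0.22. Relative to that median they were 19 lower and 8 higher (5.16% and 2.17%), against 8.33% and 3.76%. In ARID1A knockout lower calls outnumbered higher ones with TMM, RLE, DESeq2 and the centred values, and the order turned round on the values as deposited.

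**Figure D2:**
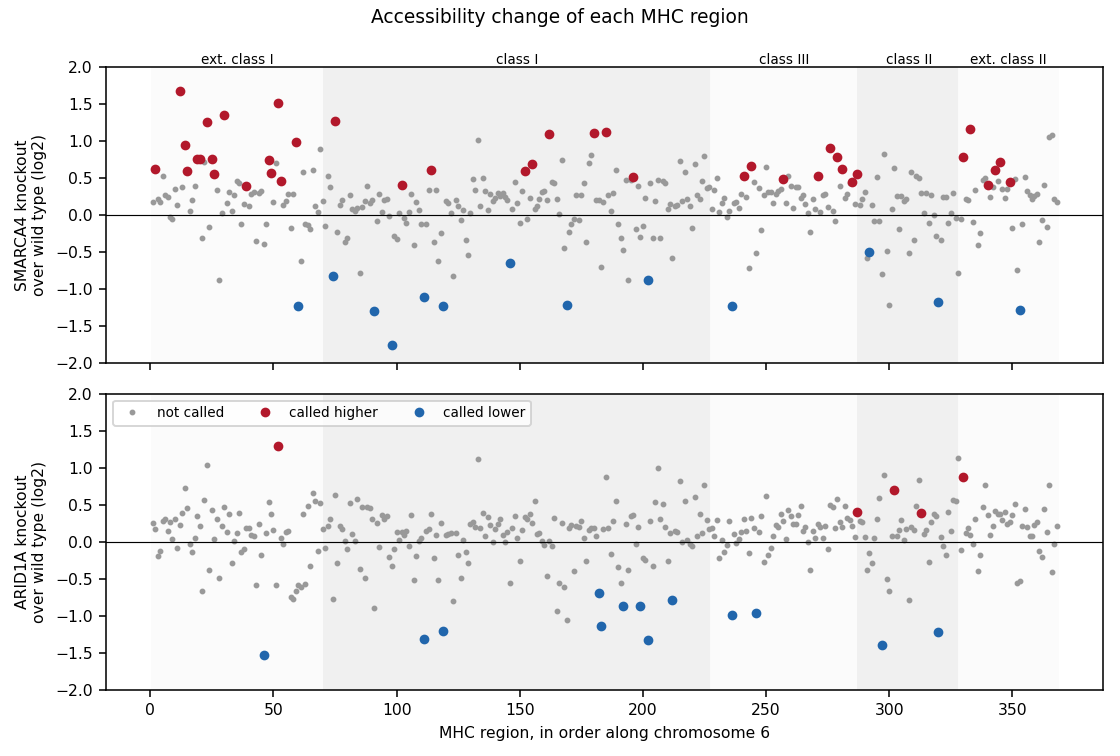
Log2 fold change of each of the 368 MHC regions in SMARCA4 and in ARID1A knockout against wild type, in order along the chromosome, with called regions marked. The points of SMARCA4 knockout lie mostly above 0 (269 of 368, and 24 of 41 in the class II part, TMM scaling); relative to the median of the authors' values the MHC median is -0.09.

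Because the MHC is rich in strong regions, the calls were also set against regions of like accessibility. In the most accessible quartile the SMARCA4 knockout had 2 lower and 28 higher of 161 MHC regions (1.24% and 17.4%), against 21.4% lower and 19.8% higher of all regions of that quartile. In the next quartile it had 5 lower and 10 higher of 95 (5.26% and 10.5%), against 21.2% and 6.83%. With this scaling, in both quartiles the share of lower calls was smaller in the MHC than over all regions, while the share of higher calls was near that of all regions in the top quartile. In the ARID1A knockout the top quartile had 2 lower and 4 higher MHC regions (1.24% and 2.48%), against 18.9% and 4.88% of all regions. Summed over the window and divided by the library total, without TMM, accessibility was 4509 ± 194 CPM in SMARCA4 knockout libraries (n = 4) and 4059 ± 98.7 CPM in wild-type libraries (n = 2), a ratio of 1.11. The libraries did not overlap (4315 to 4720 CPM, against 3989 to 4129 CPM), but 4 against 2 cannot give an exact permutation p below 0.133. The same ratio was 1.17 in the extended class I, 1.06 in the class I, 1.15 in the class III, 1.03 in the class II and 1.15 in the extended class II part, and the libraries overlapped in the class I and class II parts.

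The region with the highest fold change in the SMARCA4 knockout was chr6:28677499-28678825 in the extended class I part, 1326 bp wide. It had 12.0 and 18.0 CPM in clone 4 and 13.7 and 16.3 CPM in clone 6, against 4.46 and 4.90 CPM in wild type. Every knockout library lay above both wild-type libraries, and the log2 fold change was 1.68 (SE 0.25, edgeR adjusted p = 1.65e-08). In the knockdown table, which shares no library with the knockout table, it had 12.9 and 12.8 CPM in SMARCA4 knockout cells, against 4.10 and 4.12 CPM in wild-type cells, both with control knockdown (log2 fold change 1.64, SE 0.35, adjusted p = 0.000425). The SMARCA4 knockdown libraries held 6.0 and 4.8 CPM there, below both libraries of the knockout cells. The region was also called higher in the knockout of BRD9, with 13.0 and 13.6 CPM (1.51, SE 0.28, adjusted p = 0.000231), and of DPF2, a PHD-finger subunit of canonical BAF, with 10.2 and 11.1 CPM (1.18, SE 0.28, adjusted p = 0.00631). Those knockouts share the wild-type libraries, and without wild-type replicate 1 the adjusted p became 0.0536 for BRD9 and 0.112 for DPF2. The DPF2 call was lost in 3 of 4 fits that left out a library. ARID1A knockout libraries had 4.27 to 7.6 CPM, close to wild type, and the direct contrast of ARID1A with SMARCA4 knockout was -1.46 (adjusted p = 3.41e-10).

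The region chr6:28953038-28953632, at the other end of the same 400.0 kb interval, was higher after loss of either protein. It had 8.18 and 14.1 CPM in SMARCA4 clone 4 and 9.2 and 9.27 CPM in clone 6, against 3.2 and 3.94 CPM in wild type (log2 fold change 1.51, SE 0.29, adjusted p = 8.15e-06). ARID1A knockouts had 7.08 and 11.2 CPM in clone 3 and 7.48 and 9.21 CPM in clone 10 (1.3, SE 0.29, adjusted p = 0.000287). Both calls held when any 1 library was left out, with an adjusted p of at most 0.00635 for SMARCA4 and 0.0456 for ARID1A. SMARCD2, a core subunit, gave 8.18 and 10.6 CPM (1.4, SE 0.31, adjusted p = 0.00903), a call lost in 3 of 4 fits with a library left out, at most at 0.285. In the knockdown table SMARCA4 knockout cells had 11.7 and 5.53 CPM, against 1.95 and 2.31 CPM in wild type (2.02, SE 0.41, adjusted p = 0.000236), and without the higher of the SMARCA4 knockout libraries, replicate 1, adjusted p was 0.104.

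Further regions rose in the SMARCA4 knockout. In the extended class I part, chr6:28776147-28776857 had 7.31 and 8.56 CPM in clone 4 and 5.5 and 7.5 CPM in clone 6, against 2.43 and 3.23 CPM in wild type (1.35, SE 0.32, adjusted p = 0.000504; 0.0511 without wild-type replicate 1). Its knockdown-table values were 8.99 and 6.47 CPM in SMARCA4 knockout cells, against 1.07 and 2.96 CPM in wild-type cells (1.98, adjusted p = 0.0007). In the class I part chr6:29633519-29634185 had 4.46 and 6.45 CPM in clone 4 and 5.72 and 10.9 CPM in clone 6, against 2.72 and 2.87 CPM in wild type (1.27, SE 0.34, adjusted p = 0.00222; 0.0532 without wild-type replicate 1). Its knockdown-table values were 8.36 and 2.43 CPM in SMARCA4 knockout cells, against 1.27 and 1.54 CPM in wild-type cells (1.95, adjusted p = 0.00358), so 1 of those knockout libraries was near wild type. In both regions every knockout library lay above every wild-type library.

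In the extended class II part chr6:33174368-33175048 had 16.7 and 17.6 CPM in clone 4 and 13.8 and 19.3 CPM in clone 6, against 8.15 and 6.81 CPM in wild type (1.16, SE 0.23, adjusted p = 1.64e-05). This call held when any 1 library was left out, but on the authors' values relative to their median it was 0.54 and did not pass (adjusted p = 0.124). The knockdown table gave 0.96 (SE 0.37, adjusted p = 0.0847), which did not pass. The least accessible of the 6 highest, chr6:28739368-28739869, averaged 3.36 ± 0.31 CPM in the knockout and 1.4 ± 0.05 CPM in wild type (1.26, adjusted p = 0.0219) and was lost in 4 of 6 fits that left out a library, at most at 0.159.

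With TMM scaling fewer MHC regions were lower than higher without SMARCA4, while relative to the median of the authors' values 43 were lower and 13 higher. The 13 lower calls with TMM numbered 2, 4, 5 and 2 from the least to the most accessible quartile of all regions. The clearest was chr6:31577217-31577941 in the class III part, with 1.98 and 3.67 CPM in clone 4 and 3.14 and 2.87 CPM in clone 6, against 7.08 and 6.69 CPM in wild type (-1.23, SE 0.27, adjusted p = 0.000168). ARID1A knockouts were lower there too, with 2.3 to 5.36 CPM (-0.98, SE 0.27, adjusted p = 0.00465). In the knockdown table the change was -0.42 (SE 0.39, adjusted p = 0.613), which did not pass. In the extended class II part chr6:33326966-33327772 had 3.72 and 2.22 CPM in clone 4 and 3.81 and 0.662 CPM in clone 6, against 5.92 and 6.57 CPM in wild type (-1.28, SE 0.29, adjusted p = 0.000311). Here the knockdown table gave a call of the same direction, with 3.37 and 2.43 CPM in SMARCA4 knockout cells, against 7.61 and 6.17 CPM in wild-type cells (-1.25, SE 0.40, adjusted p = 0.0299), although it was lost in all 4 fits that left out a library, at most at 0.289. In the class I part chr6:30287170-30287824 had 1.43 to 3.35 CPM in SMARCA4 and 1.44 to 3.24 CPM in ARID1A knockouts, against 4.76 and 5.62 CPM in wild type (-1.23, adjusted p = 0.0016 for SMARCA4; -1.2, adjusted p = 0.00338 for ARID1A). The SMARCA4 calls at these 3 regions held without any 1 library, although the value at 33326966 ran from -2.18 to -0.92. On the authors' values as deposited the SMARCA4 call at 33326966 was lost (-0.78, adjusted p = 0.0834), as was that at 30287170 (-0.6, adjusted p = 0.177), and the value at 31577217 was -0.73 (adjusted p = 0.0264). Relative to the median of those values all 3 passed, at -1.11, -0.94 and -1.07 in that order. The ARID1A call at 30287170 was lost without wild-type replicate 2, at 0.0715, and on the authors' values as deposited, at 0.0788.

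The other 3 of the 6 lowest, chr6:29957829-29958436, 29877711-29878212 and 30815790-30816291, all in class I, averaged 0.496, 0.748 and 1.16 CPM in the knockout and 1.64, 1.81 and 2.69 CPM in wild type. Their log2 fold changes of -1.75, -1.29 and -1.22 had adjusted p = 0.015, 0.039 and 0.0315 and were lost in 3, 4 and 3 of 6 fits with a library left out. None of the 3 passed on the authors' values, where they were -0.34, -0.26 and -0.28, or relative to their median, where they were -0.68, -0.6 and -0.61. At 29877711 wild type of the further set had 4.73 and 5.33 CPM, above the wild type of the main set used here.

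**Figure D3:**
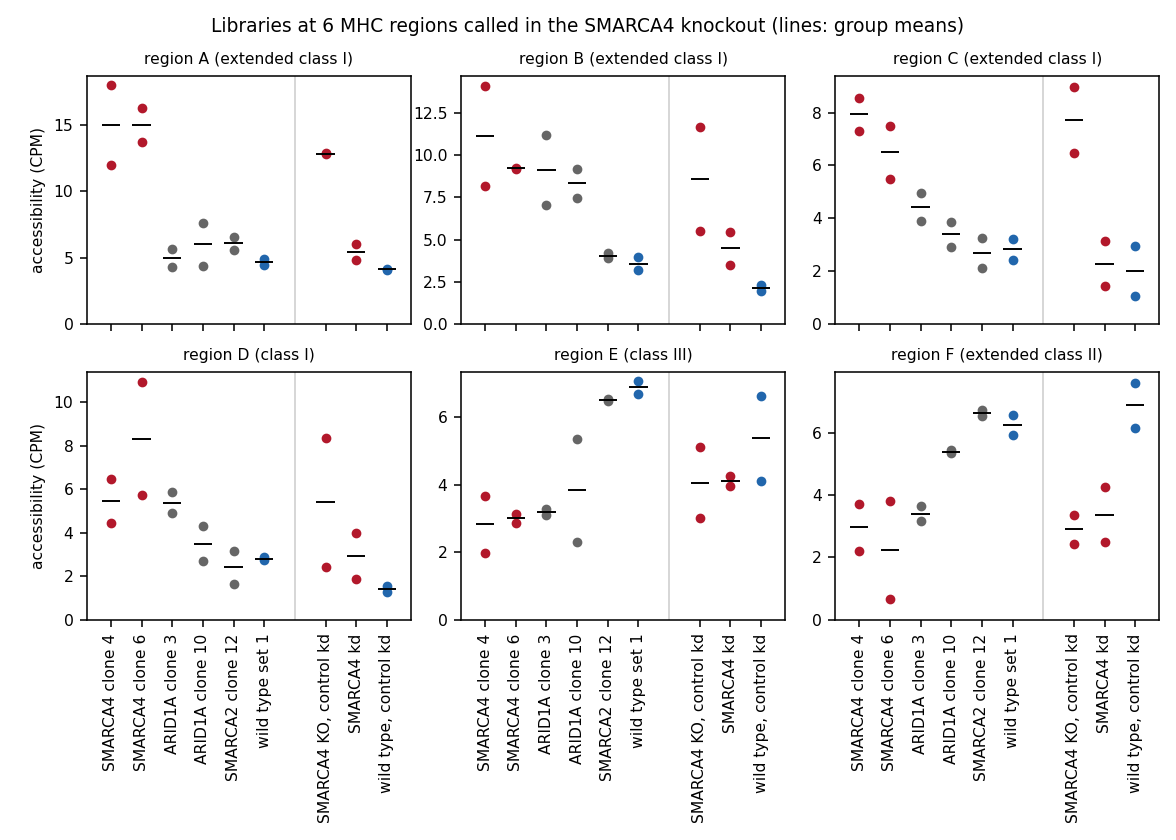
Accessibility in CPM of 6 MHC regions (panels A to F, by start 28677499, 28953038, 28776147, 29633519, 31577217 and 33326966) in each library of selected groups, with lines at group means. Left of the line are the SMARCA4, ARID1A and SMARCA2 knockout clones and wild type of the main set. Right of it are SMARCA4 knockout cells with control knockdown, SMARCA4 knockdown in wild-type cells and wild-type cells with control knockdown. SMARCA4 knockout and SMARCA4 knockdown are in red, wild type in blue and other groups in grey. In A to D the 4 SMARCA4 knockout libraries lie above the wild type of their set and in E and F below it.

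The ARID1A knockout had 18 calls in the MHC, with a median of 0.15 over the MHC and 0.02 over all regions. Clone 3 gave 7 lower and 7 higher (all regions 7.72% and 1.95%) and clone 10 gave 9 lower and 2 higher (all regions 7.02% and 1.24%). By part, lower and higher calls were 1 and 1 in extended class I, 8 and 0 in class I, 2 and 1 in class III, 2 and 2 in class II and 0 and 1 in extended class II. The 18 calls became 8, 7 or 10 without wild-type replicate 1, wild-type replicate 2 or clone 10 replicate 2. Clone 3 had a count of 8, 4, 8 or 1 and clone 10 of 2, 6, 7 or 3 when wild-type replicate 1, wild-type replicate 2, the clone's replicate 1 or its replicate 2 was left out.

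Higher calls besides the one at 28953038 were modest. In the extended class II part chr6:33165144-33165743 had 12.9 and 14.5 CPM in ARID1A clone 3 and 12.7 and 11.9 CPM in clone 10, against 6.7 and 7.53 CPM in wild type (0.87, SE 0.22, adjusted p = 0.00215). The adjusted p was 0.0909 without wild-type replicate 1 and 0.109 on the authors' values relative to their median, where the value was 0.47. The SMARCA4 knockout had 10.4 to 14.6 CPM there (0.79, adjusted p = 0.00406). The SMARCA4 knockdown in ARID2 knockout cells had 19.5 and 17.5 CPM, against 6.33 and 7.2 CPM with control knockdown in the same cells, and this value did not pass (1.45, SE 0.37, adjusted p = 0.0632). Among the strongest regions of the MHC, chr6:32163143-32164673 had 75.6 ± 10.4 CPM in ARID1A knockouts (n = 4) and 56.7 ± 5.93 CPM in wild type (n = 2; 0.41, adjusted p = 0.032). Likewise chr6:32935995-32938006 had 65.8 ± 9.58 CPM in ARID1A knockouts and 50.0 ± 1.68 CPM in wild type (0.4, adjusted p = 0.0419). Both were lost in 4 of 6 fits with a library left out, and turned to -0.10 each on the authors' values relative to their median. The class II region chr6:32764518-32765583 (0.71, adjusted p = 0.0442) was lost in 5 of 6 fits with a library left out.

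Lower calls of the ARID1A knockout included chr6:31162519-31163043 in class I, with 1.85 ± 0.54 CPM in the knockout and 4.72 ± 1.6 CPM in wild type (-1.33, SE 0.33, adjusted p = 0.00178). It was called lower in the ARID1B knockout as well, with 1.51 ± 0.23 CPM in the knockout and 3.65 ± 1.58 CPM in the 4 wild-type libraries (-1.21, SE 0.32, adjusted p = 0.0137). Both values share a wild-type library: without wild-type replicate 2 they had adjusted p = 0.176 and 0.112, and the ARID1B call was lost in 4 of 8 fits with a library left out. Also lower were chr6:30169513-30170130 in class I (-1.31, adjusted p = 0.0056), chr6:32625354-32625942 in class II (-1.39, adjusted p = 0.0175) and chr6:28935927-28936428 in extended class I (-1.53, adjusted p = 0.0342), at 1.41, 0.984 and 0.721 CPM in the knockout and 3.47, 2.62 and 1.77 CPM in wild type. These 3 were lost in 2, 3 and 4 of 6 fits with a library left out, in that order. On the authors' values as deposited the first passed (-0.85, adjusted p = 0.0453) and the others did not (-0.78 and -0.79, adjusted p = 0.146 and 0.0534).

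Tested directly, the ARID1A and SMARCA4 knockouts differed at 20 MHC regions, 19 lower and 1 higher in ARID1A knockout, against 5.35% and 4.6% of all regions. The clearest was chr6:29113953-29114673 in the extended class I part, with 1.71 and 2.76 CPM in ARID1A clone 3 and 3.35 and 2.3 CPM in clone 10, against 6.94 and 8.67 CPM in SMARCA4 clone 4 and 7.41 and 8.83 CPM in clone 6. The groups did not overlap, the difference was -1.66 (SE 0.26, adjusted p = 1.11e-07), and it held in all 8 fits with a library left out, at most at 4.03e-05. The wild-type values were 2.43 CPM, within the range of ARID1A knockout, and 5.74 CPM, between the groups. The count of 20 became 13 without ARID1A clone 3 replicate 1, ARID1A clone 10 replicate 2 or SMARCA4 clone 4 replicate 2, and 10 without SMARCA4 clone 6 replicate 2.

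The SMARCA4 knockout was also set directly against the knockout of its paralog SMARCA2, which had no MHC region called (8 lower and 2 higher at an unadjusted p below 0.05, none with DESeq2). This contrast gave 16 lower and 65 higher in SMARCA4 knockout, against 15.3% and 10.1% of all regions. At chr6:29113953-29114673 it was 1.69 (SE 0.32, adjusted p = 9.76e-06), with 2.95 and 2.05 CPM in the SMARCA2 knockout. At chr6:33473664-33474195 in extended class II it was 2.38 (adjusted p = 0.00021), with 3.35 ± 1.21 CPM in SMARCA4 and 0.618 ± 0.129 CPM in SMARCA2 knockout. Against wild type the SMARCA4 knockout was 1.09 there and was not called. Levels at chr6:29957829-29958436 and 29877711-29878212 in class I were 0.496 and 0.748 CPM in SMARCA4 and 2.5 and 3.01 CPM in SMARCA2 knockout. Wild type of the main set lay between, at 1.64 and 1.81 CPM. Wild type of the further set had 4.73 and 5.33 CPM at 29877711, above the SMARCA2 knockout. The contrast of SMARCA4 with SMARCA2 knockout was -2.35 and -2.02 (adjusted p = 0.00016 and 8.75e-05). The 4 values held in all fits with a library left out, although the count of 81 became 46 and 43 without replicate 2 of SMARCA4 clone 4 and of clone 6, and 35 and 50 without SMARCA2 replicate 1 and replicate 2.

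ARID1A and its paralog ARID1B differed, each relative to the wild type of its own set, at 8 regions lower and 6 higher in ARID1A knockout, against 9.52% and 2.0% of all regions. The largest difference was at chr6:30169513-30170130, with 1.41 ± 0.42 CPM in ARID1A and 4.51 ± 1.56 CPM in ARID1B knockouts (n = 4 each; -1.72, SE 0.37, adjusted p = 0.000213), which held in all 12 fits with a library left out. The count of 14 became 7, 7, 9 and 9 without wild-type replicate 1, wild-type replicate 5, wild-type replicate 6 and ARID1A clone 3 replicate 2. The 2 ARID1B clones, compared with different wild-type libraries, shared no called MHC region: clone 7 had 4 lower and 6 higher (all regions 3.19% and 6.03%) and clone 5 had 1 higher (all regions 0.205% lower and 0.0701% higher). Taken as their mean, ARID1B had 2 lower and 0 higher, against 1.46% and 1.76%, which became 0 when wild-type replicate 2 or 5 was left out, 1 when wild-type replicate 1, wild-type replicate 6 or clone 7 replicate 1 was, and 5 when clone 5 replicate 2 was. The 10 calls of clone 7 became 3, 3, 4 and 6 without wild-type replicate 1, wild-type replicate 2 and its own replicates 1 and 2.

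Another pattern was a run of 20 neighbouring regions, chr6:31409220 to 31566868 (158 kb), that straddles the border of class I (12 regions) and class III (8 regions) and was higher as a block in 5 single-clone knockouts. The run was found by scanning the values, so its level is a description without a test. All 20 regions lay above wild type in the clones of BCL11A and BCL11B, zinc-finger transcription factors that join BAF complexes, of BCL7A, a small accessory subunit, and of the core subunits SMARCC1 and SMARCD3. The median log2 fold change over the run was 0.85, 0.84, 0.81, 0.96 and 0.88 in that order, while over the rest of the MHC the same clones had -0.07, -0.09, -0.02, 0.06 and -0.03. On the authors' values relative to their median the SMARCC1 run median was 0.78.

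Summed over the run, accessibility was 281 and 267 CPM in the BCL11A, 271 and 275 in the BCL11B, 256 and 292 in the BCL7A, 280 and 316 in the SMARCC1 and 263 and 293 in the SMARCD3 libraries, against 148 and 157 CPM in wild-type replicates 1 and 2. These are 1.8, 1.79, 1.8, 1.95 and 1.82 times the wild-type mean. The libraries of the other 21 clones ranged from 121 to 196 CPM, with the SMARCA4 clones at their upper end (183 and 193 in clone 4, 162 and 196 in clone 6), and wild type of the further set had 136 and 141 CPM. No library of the other clones reached the lowest of the 5, and no other clone had all 20 regions above wild type. The block ended within 1 region on either side: the left neighbour at 31379291 had log2 fold changes of -0.08 to 0.75 in the 5 clones and the right neighbour at 31577217 had -0.58 to 0.30, with no call in them. Regions of low and of high level took part, from 0.971 and 2.39 CPM in wild type at 31474282 to 30.4 and 28.0 CPM at 31509210.

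**Figure D4:**
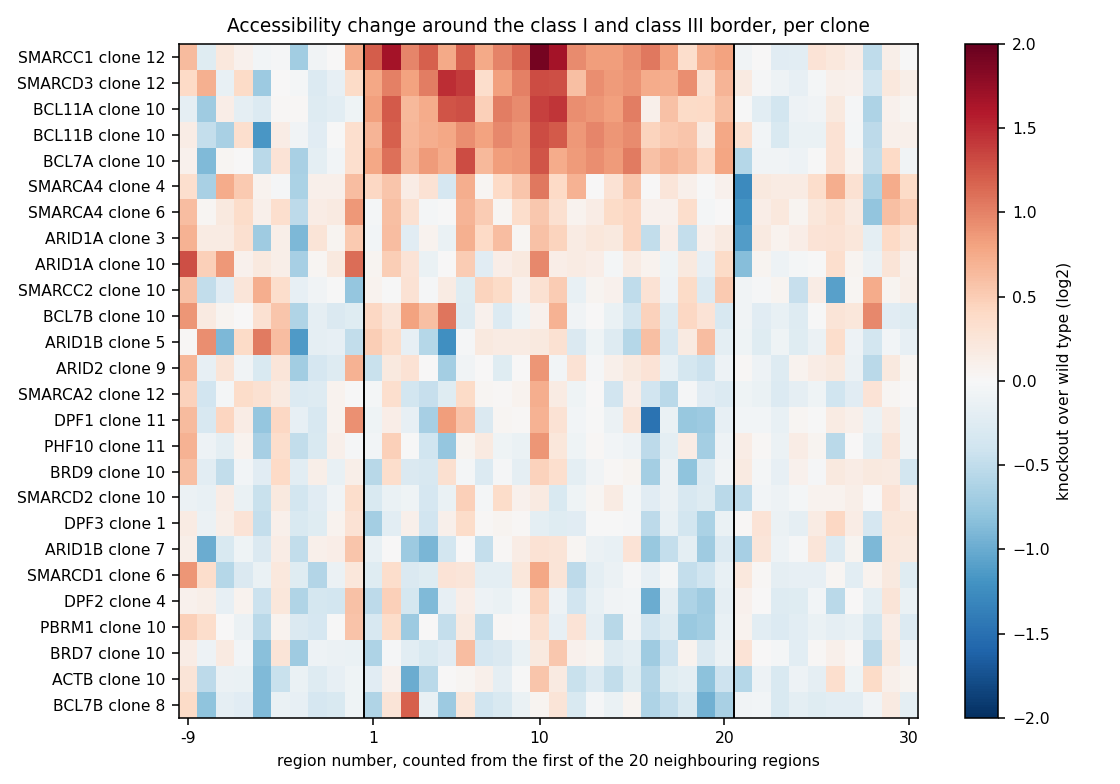
Log2 fold change against wild type in each of the 26 knockout clones (rows) at 40 neighbouring MHC regions in order along the chromosome (columns, numbered from the first region of the run), with vertical lines around the 20 regions of the run. The rows of BCL11A, BCL11B, BCL7A, SMARCC1 and SMARCD3 are above 0 at all 20, with medians of 0.81 to 0.96, and are not so outside the lines.

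The called regions of these knockouts followed the block. Higher calls inside the run numbered 7 in BCL11A, 5 in BCL11B, 4 in BCL7A, 13 in SMARCC1 and 7 in SMARCD3, and these were all of their higher MHC calls. The shares of all regions called higher were 0.38%, 0.535%, 0.278%, 1.0% and 0.474%. Outside the run the MHC held 3, 1, 1, 2 and 0 calls, all lower, against 0.295%, 0.357%, 0.189%, 4.19% and 0.368% of all regions. The regions called in the most knockouts, chr6:31465294-31466215, 31509210-31510510, 31514254-31514914 and 31515015-31515646, lie in the run and were called in each of the 5, which share their wild-type libraries. At chr6:31509210-31510510 the BCL11B libraries had 55.0 and 59.7 CPM, the BCL7A libraries 51.3 and 60.1, the SMARCC1 libraries 44.9 and 59.1 and the SMARCD3 libraries 56.0 and 55.7, against 30.4 and 28.0 CPM in wild type. The BCL11B value there was 0.97 (SE 0.17, adjusted p = 5.14e-05) and held without any 1 library. In SMARCC1 so did chr6:31410160-31410978, with 8.95 and 10.2 CPM against 3.01 and 2.99 CPM in wild type (1.67, SE 0.34, adjusted p = 0.000242), and chr6:31483644-31484342, with 10.7 and 8.14 CPM against 2.62 and 3.35 CPM in wild type (1.67, SE 0.35, adjusted p = 0.000393).

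Counts of calls in the run depended on single libraries more than the sums did. BCL11A fell to 3, 0, 1 and 5 of 10 without wild-type replicate 1, wild-type replicate 2 and its own replicates 1 and 2, BCL11B to 3, 1, 2 and 3 of 6, and SMARCD3 to 2, 1, 4 and 1 of 7 in the same order. BCL7A fell to 2, 1 and 2 of 5 without wild-type replicate 1, wild-type replicate 2 and its own replicate 2, and SMARCC1 to 9 and 5 of 15 without wild-type replicate 2 and its own replicate 2. Each left-out fit leaves 1 library in an arm, assumed to vary like the other groups.

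The same 5 clones share a further feature far from the MHC. At 12 regions of chromosome 10 between 89472170 and 89697913 they held 0.715% to 1.47% of the wild-type level, and so did the clones of PHF10 (1.18%) and SMARCD1 (1.21%), while the other 19 clones held 101.0% to 154.0%. PHF10 and SMARCD1 had summed run levels of 0.96 and 0.94 times wild type, so the loss on chromosome 10 and the raised run did not always occur together. The relation between the 2 stretches was not tested. In the knockdown table no region of the run was called, and the run median was 0.42 after SMARCA4 knockdown, 0.38 after double knockdown and 0.33 in SMARCA4 knockout cells, with 17 of 20 regions above 0 in each. The medians over the whole MHC in these comparisons were 0.32, 0.17 and 0.15.

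**Figure D5:**
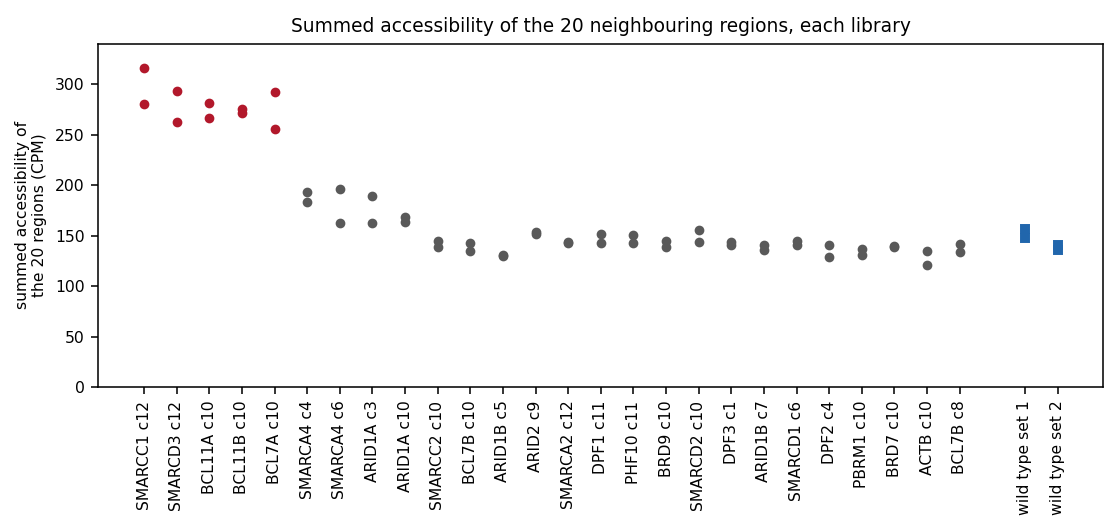
Accessibility summed over the 20 regions of the run (CPM) in every library of the knockout table, with the clones of BCL11A, BCL11B, BCL7A, SMARCC1 and SMARCD3 in red, other clones in grey and wild type as blue squares. The 10 red points lie at 256 to 316 CPM, and all other libraries at 121 to 196 CPM.

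A class I region outside the run, chr6:30181694-30182501, was the only MHC region called in both directions across knockouts. It had 4.2 and 3.9 CPM in the BCL11A, 4.11 and 3.9 CPM in the BCL11B and 3.06 and 5.12 CPM in the BCL7A clone, against 7.96 and 8.84 CPM in wild type (log2 fold changes -1.05, -1.06 and -1.03, adjusted p = 0.0343, 0.0242 and 0.0484). SMARCD3 had 4.32 and 4.2 CPM and did not pass (-0.98, adjusted p = 0.0536), while SMARCA4 knockouts had 10.3 to 15.5 CPM (0.61, adjusted p = 0.032). The knockouts share the wild-type libraries, and of 4 fits with a library left out the BCL11B call was lost in each and the BCL7A call in 3, where its value ran from -1.45 to -0.71. The lowest fold change of the BCL11A and DPF2 knockouts fell on another class I region, chr6:30251383-30251884, with 1.0 and 0.683 CPM in BCL11A and 0.826 and 1.3 CPM in DPF2 knockout, against 2.81 and 4.9 CPM in wild type (-2.16, adjusted p = 0.00795; -1.83, adjusted p = 0.0177). Without wild-type replicate 2 these had adjusted p = 0.332 and 0.403, and they were lost in 3 and 2 of 4 fits with a library left out.

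Loss of ARID2, the subunit that defines PBAF, gave 0 lower and 2 higher, against 1.11% and 0.682% of all regions, with a median of 0.02. The SMARCA4 knockout, which shares the wild-type libraries, is given beside each. At chr6:31025649-31026586 in class I the ARID2 knockout had 11.7 and 9.7 CPM, against 4.85 and 6.1 CPM in wild type (0.97, SE 0.29, adjusted p = 0.0477), and the SMARCA4 knockout had 9.31 to 13.6 CPM (1.11, adjusted p = 0.000327). At chr6:33174368-33175048 the ARID2 knockout had 12.6 and 15.4 CPM, against 8.15 and 6.81 CPM in wild type (0.9, SE 0.25, adjusted p = 0.0359). Both ARID2 calls were lost in all 4 fits with a library left out and on the authors' values, at 0.0738 and 0.089 as deposited and 0.129 and 0.164 relative to their median, and in the knockdown table, where ARID2 knockout cells were compared with wild-type cells, both were positive without passing (0.61, adjusted p = 0.563; 0.64, adjusted p = 0.546).

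The remaining knockouts had few calls or none. Without the scaffold subunit SMARCD1, chr6:28702852-28703647 in extended class I was lower, with 2.14 and 1.93 CPM, against 5.34 and 6.57 CPM in wild type (-1.54, SE 0.36, adjusted p = 0.00661; lost without wild-type replicate 2 or either SMARCD1 library), the 1 lower call where 0.814% of all regions were called lower and 0.764% higher. SMARCC1 knockout had chr6:28951461-28952045 lower in the same part, with 2.16 and 1.07 CPM, against 4.08 and 5.02 CPM in wild type (-1.48, SE 0.37, adjusted p = 0.00483; lost without wild-type replicate 2 or its own replicate 2, at most at 0.222). SMARCC1 knockout also had chr6:32284276-32284777 in class II lower (-1.38, adjusted p = 0.0291), a call lost in 3 of 4 fits with a library left out, at most at 0.326, and on the authors' values as deposited, at 0.0596. ACTB had 1 lower call, chr6:30098661-30099326, with 3.12 and 3.6 CPM, against 8.73 and 5.38 CPM in wild type (-1.08, adjusted p = 0.0443; lost without wild-type replicate 1 or either ACTB library, and on the authors' values as deposited, at 0.0628), where 0.519% of all regions were lower and 0.833% higher. DPF2 had 2 lower and 1 higher (all regions 0.374% and 1.42%), and none without its replicate 1.

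BRD9 had 1 higher call (all regions 0.238% lower and 0.26% higher), SMARCD2 1 higher (0.201% and 0.223%) and BCL7B 1 higher (0.783% and 0.62%). The first 2 were described above, and the BCL7B call, chr6:31430509-31431199 with 6.57 ± 2.39 CPM in the knockout and 3.17 ± 0.68 CPM in wild type (1.0, adjusted p = 0.03), was lost in 7 of 8 fits with a library left out and on the authors' values relative to their median, at 0.0792. BCL7B clone 8 had 2 lower and 3 higher (all regions 1.33% and 3.5%) and clone 10 had none (14 lower and 20 higher unadjusted; all regions 0.55% and 0.192%). The 5 calls of clone 8 became 1 without either wild-type library and 0 without its replicate 1. No MHC region was called in the BRD7, DPF1, DPF3, PBRM1, PHF10, SMARCA2 and SMARCC2 knockouts, where 0.312%, 0.0378%, 0.0302%, 0.243%, 0.243%, 0.16% and 0.0584% of all regions were called lower and 0.383%, 0.0137%, 0.0364%, 0.18%, 0.148%, 0.0742% and 0.0357% higher. At an unadjusted p below 0.05 they had 12, 6, 8, 9, 5, 8 and 7 lower and 7, 3, 5, 10, 7, 2 and 14 higher, and DESeq2 called 0 in each but SMARCC2, where it called 1.

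Some MHC regions varied across clones and some hardly did. Over the 256 MHC regions of above-median accessibility, the SD of log2 CPM over clone means had a median of 0.22, against 0.29 over all 72766 such regions. The top quartile held 161 of the 256 and 36383 of the 72766, so the SDs were not compared at like accessibility. By part the median SD in the MHC was 0.23 in extended class I, 0.22 in class I, 0.20 in class III, 0.26 in class II and 0.22 in extended class II. The steadiest was chr6:29595520-29596911, at the border of the extended class I part, whose clone means ran from 30.0 CPM (ARID1B clone 5) to 42.3 CPM (ARID1A clone 3), with 35.0 ± 5.02 CPM in wild type. Its SD of 0.11 stood at the 0.114 percentile of all regions. Others with a small SD, chr6:28804990-28807169 (0.12) and chr6:30069626-30070223 (0.13), had clone means of 26.6 to 39.7 CPM and 12.4 to 17.4 CPM.

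The most variable was the class II region chr6:33019447-33020501, with an SD of 0.64, at the 92.8 percentile. ARID1A knockouts had 2.41 to 2.9 CPM and SMARCA4 knockouts 2.1 to 4.04 CPM, against 4.17 and 8.13 CPM in wild type (-1.22, adjusted p = 0.000911; -1.17, adjusted p = 0.000909). PHF10 knockout libraries had 12.9 and 13.0 CPM and DPF2 knockout libraries 9.91 and 13.9 CPM, and neither passed (1.09, adjusted p = 0.0517; 0.97, adjusted p = 0.0515). Wild type itself was widely spread here, and without its replicate 2 the ARID1A value had adjusted p = 0.318. On the authors' values the ARID1A value was -0.47 as deposited and -0.69 relative to their median, and passed in neither (adjusted p = 0.282 and 0.119). In the knockdown table ARID2 knockout cells had 8.84 and 6.73 CPM, against 2.73 and 1.93 CPM in wild-type cells (1.72, SE 0.43, adjusted p = 0.0405; lost without any 1 of the 4 libraries), while the ARID2 knockout clone of the knockout table had 8.75 and 7.98 CPM and did not pass (0.46, adjusted p = 0.609). The regions next in order were chr6:28677499-28678825 (SD 0.62), 28953038-28953632 (0.59), 29633519-29634185 (0.55) and 33174368-33175048 (0.51), all described with the SMARCA4 knockout.

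SMARCA4 knockdown placed most of the MHC above its control. The SMARCA4 knockdown in wild-type cells gave 0 lower and 3 higher, against 4.96% and 0.773% of all regions, and 2 lower and 50 higher at an unadjusted p below 0.05. Its median was 0.32 over the MHC and 0.06 over all regions, with 289 of 368 above 0. Summed over the window, the SMARCA4 knockdown libraries had 4292 and 4923 CPM, against 3547 and 3872 CPM with control knockdown, a ratio of 1.24. With TMM scaling the ratio was 1.21 and the libraries overlapped. Against the mean of both controls, the median was 0.41 in knockdown replicate 1 and 0.14 in replicate 2. The controls differed in the same direction. With TMM scaling the sums were 4288 and 3599 CPM in control replicates 1 and 2, and 5542 and 4028 CPM after knockdown. Replicate 1 had the larger sum in every group of the knockdown table. The 2 medians therefore cannot tell a difference in knockdown shift from a difference between replicates.

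The 3 called regions were chr6:31038300-31039019 in class I, with 13.6 and 9.76 CPM after SMARCA4 knockdown, against 5.85 and 2.57 CPM after control knockdown (1.45, SE 0.38, adjusted p = 0.0107), chr6:32951666-32952167 in class II, with 5.68 and 4.96 CPM after SMARCA4 knockdown, against 1.76 and 2.31 CPM after control knockdown (1.4, SE 0.43, adjusted p = 0.0375), and chr6:33247609-33248263 in extended class II, with 20.0 and 13.9 CPM after SMARCA4 knockdown, against 8.68 and 5.92 CPM after control knockdown (1.21, SE 0.36, adjusted p = 0.0268). In each, both knockdown libraries lay above both controls. Of 4 fits with a library left out, the first call was lost in 2, the second in 4 and the third in 3, at most at 0.308, 0.306 and 0.314. The count became 1 without control replicate 2 and 0 without knockdown replicate 1.

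The double knockdown of SMARCA4 and ARID2 gave 1 lower and 0 higher, against 4.0% and 0.618% of all regions, with 3 lower and 20 higher unadjusted and a median of 0.17. The region was chr6:29112521-29113434 in extended class I, with 2.89 and 3.3 CPM after double knockdown, against 8.58 and 7.59 CPM after control knockdown (-1.39, SE 0.41, adjusted p = 0.028), lost in all 4 fits with a library left out. It lies next to chr6:29113953-29114673, where SMARCA4 knockouts were higher. SMARCA4 knockdown in ARID2 knockout cells gave no MHC call (4 lower and 35 higher unadjusted; all regions 0.139% and 0.0556%) and a median of 0.31. Its difference from the knockdown in wild-type cells, the interaction, gave none either (15 lower and 2 higher unadjusted, none with DESeq2; all regions 0.0%). ARID2 knockdown gave none in wild-type cells (2 lower and 9 higher unadjusted) or in SMARCA4 knockout cells (1 lower and 9 higher), with 0.0% of all regions called in each.

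SMARCA4 knockout cells with control knockdown, a second measurement of that knockout, gave 1 lower and 5 higher, against 8.26% and 1.49% of all regions, with a median of 0.15 in the MHC and 0.08 over all regions. The count of 6 became 3 without their replicate 1. By quartile of accessibility, from least to most, the MHC medians of these cells were 0.497, 0.304, 0.209 and 0.0601. The SMARCA4 knockout clones had -0.118, 0.139, 0.193 and 0.275. Over all regions the medians were 0.207, 0.15, 0.0375 and -0.00857 in these cells, and -0.0388, -0.0482, -0.078 and 0.162 in the clones. The order by quartile thus differed between the 2 measurements over all regions too, and not only in the MHC. In the top quartile 0 of 161 MHC regions were called in these cells, where 14.7% of all regions were lower and 1.22% higher. Of the 40 regions called higher in the SMARCA4 knockout clones, 35 were above 0 in these cells (87.5%) and 4 were called, where 68.8% of all MHC regions were above 0. The same share over the whole table was 86.3%. Of the 13 called lower, 11 were below 0 and 1 was called, and of such regions in the whole table, 93.0% were below 0. After SMARCA4 knockdown, 38 of the 40 were above 0 (95.0%) and 1 was called, where 78.5% of the MHC was above 0, and 10 of the 13 were below 0. After double knockdown 28 of the 40 were above 0 (70.0%), near the 66.6% of the MHC, and 11 of the 13 were below 0. After SMARCA4 knockdown in ARID2 knockout cells 35 of the 40 were above 0 (87.5%, MHC 71.7%) and 8 of the 13 below 0. ARID2 knockout cells with control knockdown gave 0 lower and 1 higher, against 0.374% and 0.0446% of all regions.

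Wild-type cells of the 2 sets, with no gene removed, also differed in the MHC. Set 2 against set 1 gave 5 lower and 3 higher, against 1.54% and 4.29% of all regions. At chr6:33372681-33373182 in extended class II, set 2 had 0.43 and 0.577 CPM, against 2.52 and 3.71 CPM in set 1 (-2.59, SE 0.60, adjusted p = 0.0022), and at chr6:31060804-31061523 in class I it had 8.88 and 9.23 CPM, against 4.27 and 2.87 CPM (1.32, SE 0.31, adjusted p = 0.00265). The class I region chr6:29877711-29878212, described with the SMARCA4 knockout, was also higher in set 2 (1.46, SE 0.46, edgeR adjusted p = 0.0336). The first was lost in 2 and the second in 1 of 4 fits with a library left out. The count of 8 became 5, 1, 3 and 4 without wild-type replicates 1, 2, 5 and 6.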

How the data were processed

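The assay was ATAC-seq of HAP1 cells that, per the labels, had been made permeable by digitonin before tagmentation with TDE1. The authors deposited raw read counts for 145536 regions in the knockout table and 145730 in the knockdown table. Per the submitters' processing notes the tools included MACS2 2.1.1.20160309, Picard 1.118 and Bowtie2 2.2.4, in no stated role or order, and the build was hg19. How regions were merged, and whether their starts are 0-based, is not given in the sources used here; coordinates are the deposited ones. The authors' normalized table, on a scale taken as log2, covers the 48 libraries of set 1 by a method not given in the sources used here, and served only as an alternative test. Of 74 labelled samples 72 were matched to a column by title. Wild-type replicates 3 and 4 were not analysed here, and 2 columns that the labels do not list were not used here.

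MHC regions are those on chromosome 6 from 28500000 to 33500000, with parts bounded at 29.6, 31.5, 32.2 and 33.1 Mb by midpoint. The members and lists were chosen with earlier results of these data known. The further knockout set was inferred from accession range and title form, since the labels give no dates. Titles and another field name the knockdown reagent differently, so the word knockdown is used alone.

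Counts were fitted with edgeR 4.0.16 (R 4.3.3; glmQLFit and glmQLFTest, TMM, filterByExpr), 1 coefficient per clone or group, over the whole table: 145532 regions and 28 residual degrees of freedom for knockouts, 145617 and 8 for knockdowns. For a gene with 2 clones the mean of their effects, each against the wild type of its own set, was tested. Tests are 2-sided, with Benjamini-Hochberg adjustment over all regions at 0.05. SE is the log2 fold change divided by the root of F. The procedure was checked on simulated counts. Alternatives were DESeq2 1.42.0, RLE scaling, no filter, pooled wild type, a replicate block, limma 3.58.1 on the authors' values with and without centring on their median, moved part boundaries, and each library left out, in which the trend of the dispersion was taken from the full data. Centring and the counts without the run of 20 regions were added after seeing the data. Reads carry no molecular identifiers, so that counts are of reads and not of molecules.

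Named regions were those called with no overlap between groups: the 6 lowest and 6 highest for SMARCA4, ARID1A, SMARCC1 and ARID2 knockout and for SMARCA4 and double knockdown, and 1 each for other comparisons. The 3 most accessible of each part, the 5 widest, the 5 called in most knockouts and the 5 with the largest and smallest SD over clones were added; regions of the run and of the 400.0 kb interval, and values in further comparisons, were named after their values were seen.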

Additional observations from a re-analysis of the deposited data

Results flagged for a closer look

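No result met a rule for a closer look: in 30 groups of 4 libraries taken at single regions and sums, no library stood apart by Dixon's criterion at 95%, where chance alone sets apart about 1 group in 20.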

How the results depend on the processing

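Numbers of called MHC regions are given in this section without the share of all regions called under the same setting. They show how far the counts moved and cannot be read as a result about the MHC. With DESeq2 they were 0 for ACTB, 24 for ARID1A clone 3, 8 for BCL7B clone 8, 1 for SMARCC2 and 0 for the double knockdown; with RLE scaling 0 for ACTB and 1 for PHF10. With all wild-type libraries pooled they were 6 for ACTB, 54 for ARID1A, 6 for ARID2, 11 for BCL11B, 15 for BCL7A, 0 for BCL7B, 2 for BRD7, 2 for BRD9, 1 for DPF1, 7 for DPF2, 5 for PBRM1, 5 for PHF10, 105 for SMARCA4, 30 for SMARCC1, 2 for SMARCC2, 3 for SMARCD1, 9 for SMARCD2 and 12 for SMARCD3, and the ARID2 median was 0.059. On the authors' values they were 0 for ACTB, 37 for ARID1A, 15 for ARID1B, 14 for BCL7B, 1 for BRD7, 1 for DPF1, 2 for PBRM1 and 3 for SMARCD1. Relative to the median of those values they were 19 for ARID1B, 3 for BCL7A, 24 for BCL7B, 2 for BRD7, 2 for BRD9, 1 for DPF1, 5 for DPF2, 1 for DPF3, 3 for PBRM1 and 7 for SMARCD1; the medians became -0.086 for SMARCA4, -0.057 for ARID1A, -0.07 for SMARCC1 and -0.072 for ARID2, and the ARID1A values at chr6:32163143-32164673 and 32935995-32938006 turned to -0.10 each. The cause was not tested. Without the run the counts were 3, 1, 1, 0, 2 and 0 for BCL11A, BCL11B, BCL7A, BCL7B, SMARCC1 and SMARCD3. The summed MHC ratio was 1.199 for SMARCA4 with TMM and 1.094 for SMARCC1 in the core window, and class II held 2 higher SMARCA4 calls with boundaries moved up or down by 0.1 Mb.

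The replicate numbers are shared between groups but do not pair the libraries by any label. Same-numbered libraries deviated together with correlations of -0.16 to 0.26 in the knockout table and 0.06 to 0.45 in the knockdown table, where 25 of 28 pairs of groups were over 0.1. With the number as a replicate block the counts were 1 and 8 for BCL7B clones 10 and 8, 1 for PHF10, 24 for SMARCA4 knockdown (1 lower and 23 higher), 4 for double knockdown, 16 for SMARCA4 knockdown in ARID2 knockout cells (all higher), 5 for ARID2 and 18 for SMARCA4 knockout cells with control knockdown.

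With each library left out in turn, counts ran from 25 to 52 for SMARCA4 (clone 4 12 to 34, clone 6 2 to 29), 7 to 18 for ARID1A (clone 10 2 to 7, clone 3 1 to 8), 5 to 13 for SMARCC1, 0 to 5 for ARID1B (clone 5 0 to 1, clone 7 3 to 6), 0 to 1 for ARID2, 0 to 5 for BCL11A, 1 to 3 for BCL11B, 1 to 4 for BCL7A and for SMARCD3, 0 to 7 for BCL7B clone 8, and 0 to 4 for DPF2. They ran from 0 to 1 for ACTB, BCL7B, BRD7, BRD9, PHF10, SMARCC2, SMARCD1, SMARCD2 and the double knockdown, where the non-zero counts of BRD7, PHF10 and SMARCC2 arose without wild-type replicate 1, 2 and 6. Direct contrasts ran from 10 to 22 for ARID1A against SMARCA4, 35 to 82 for SMARCA4 against SMARCA2, 7 to 16 for ARID1A against ARID1B and 1 to 5 for the wild-type sets; the knockdown table from 0 to 2 for SMARCA4 knockdown, 0 to 0 for ARID2 knockout and 3 to 7 for SMARCA4 knockout cells. The ARID2 median ran from -0.01 to 0.034. Of 69 named values, 53 lost their call in at least 1 such fit, against 2 with RLE, 5 with DESeq2, 1 with the replicate block and 0 without the filter. Of 48 named values in the authors' table, 15 lost their call as deposited, and relative to the median 12 did and 2 turned round. A library held 31.0 to 84.0 reads at its median MHC region, which limits the precision of single regions.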
